A study of Sus scrofa with 30 samples.

Results

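The genes described here encode the amino acid and peptide carriers of the SLC1, SLC3, SLC6, SLC7, SLC15, SLC36, SLC38 and SLC43 families in pig embryos around the onset of elongation. They were taken as every gene whose pig NCBI symbol starts with one of these family names followed by a member number. Of 64 annotated genes that match, 39 were among the 13103 genes of the table of all embryos, and the other 25 were outside that table and were not analysed here. The 39 include SLC7A6OS, which shares a symbol stem with SLC7A6 but encodes no carrier, and SLC7A5, the light chain LAT1, which the gene table lists as a long noncoding RNA.

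RNA of single whole embryos, embryonic disc and trophectoderm together, was sequenced on Days 8, 10 and 12 after insemination, with 5 females and 5 males a day. The embryos were flushed from the uteri of German Landrace × Pietrain crossbred gilts that had all been cycle synchronized with altrenogest, PMSG and human chorionic gonadotropin and inseminated with sperm of 1 Pietrain boar. All groups therefore share the sire, which gilt an embryo came from is not stated, and littermates occur within a day, so p-values measure the spread between embryos and not between litters. Each gilt belongs to 1 day, so a difference between days and one between gilts cannot be told apart. Total counts ran from 6068212 in the Day 12 female embryo d12_f_245 to 34002508, with a median of 22202723. Because whole embryos were sequenced, fewer cells of a type and less RNA per cell cannot be told apart.

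Amino acid carriers move their substrates across the plasma membrane or the lysosomal membrane. Cationic amino acids such as arginine and lysine enter through the CAT carriers (SLC7A1, SLC7A2, SLC7A3) or are exchanged by the y+L carriers (SLC7A6, SLC7A7) and b0,+AT (SLC7A9). Neutral amino acids use exchangers such as LAT1 and LAT2 (SLC7A5, SLC7A8) and ASCT carriers (SLC1A4, SLC1A5), and sodium-coupled carriers of the SLC38 and SLC6 families. Glutamate and aspartate use the EAAT carriers of the SLC1 family, and short peptides use the proton-coupled SLC15 carriers. Several SLC7 light chains reach the membrane only when bound to a heavy chain, SLC3A2 (4F2hc) or SLC3A1 (rBAT). In the uterus of the pig, histotroph supplies amino acids such as arginine, leucine and glutamine to the conceptus before implantation, and these amino acids are known to act on mTOR signaling in trophectoderm.

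Levels are given as CPM, reads scaled to a common library size after TMM scaling, as the lowest, median and highest of 10 embryos. A gene was called between days when its adjusted p in the edgeR quasi-likelihood test was under 0.001 and its log2 fold change was beyond 1. On Day 10 against Day 8, 11 of 39 members were called (28.2%), beside 14.1% of all genes. Of these, 5 were higher, beside 9.88% of all genes, and 6 were lower, beside 4.20%. On Day 12 against Day 10, 17 of 39 were called (43.6%), beside 23.3% of all genes, with 14 higher (14.9% of all genes were called as higher) and 3 lower (8.39% of all genes). The median log2 fold change of the members was 0.04 and 0.49 in these comparisons, beside 0.03 and 0.04 over all genes. Over the whole interval, Day 12 against Day 8, 24 of 39 were called (61.5%), beside 32.5% of all genes. The 16 called as higher stand beside 22.0% of all genes and the 8 called as lower beside 10.4%. The share of members called was above that of all genes in each of the 3 comparisons, and in the second step this was so for the genes that rose and not for those that fell. Day 10 is part of both steps, so these counts share embryos.

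**Figure D1:**
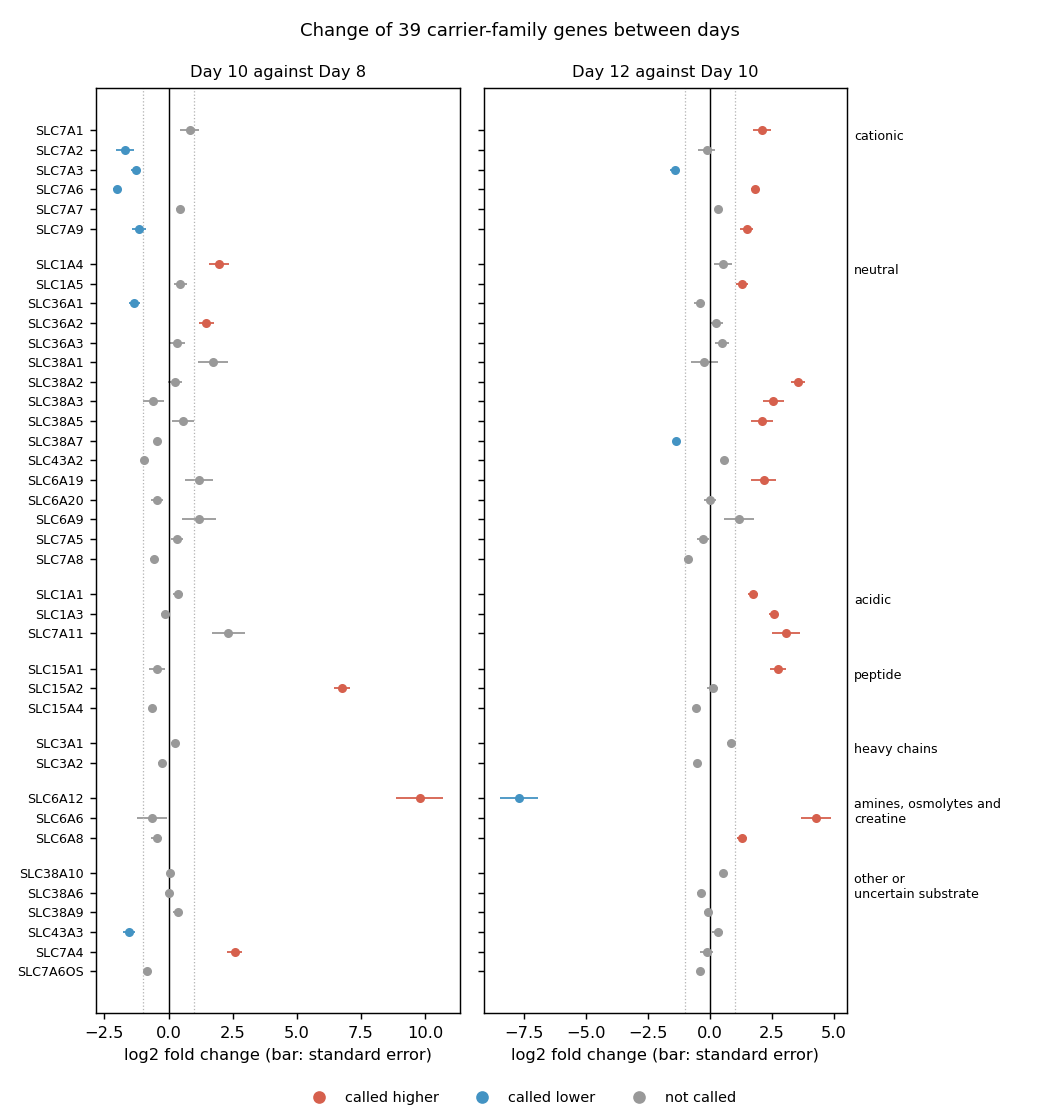
Log2 fold change of each of the 39 genes (points) with its standard error (bars) on Day 10 against Day 8 (left) and on Day 12 against Day 10 (right), grouped by substrate; dotted lines mark a log2 fold change of 1 either way, and the 2 axes have different ranges. SLC6A12 and SLC15A2 rose most in the first step, and all 3 acidic carriers were called as higher in the second, beside 14.9% of all genes.

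The largest class in number was that of the neutral carriers with 16 members, followed by 6 cationic carriers, 6 genes of other or uncertain substrate, 3 acidic carriers, 3 peptide carriers, 3 carriers of amines, osmolytes or creatine and the 2 heavy chains. Within a class, the main carrier was named by its share of the class's reads in each embryo. Reads also scale with transcript length, and no transcript lengths were at hand, so these shares rank reads and not molecules. The change between days of a ratio of 2 genes within embryos does not depend on their lengths, while that of a share does. The 39 genes together took 4522 CPM on Day 8 (4289.7 to 4949.7, lowest to highest embryo), 3900.3 CPM on Day 10 (3403 to 4479) and 3647 CPM on Day 12 (2398 to 5123).

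The main peptide carrier changed between Day 8 and Day 10. SLC15A4, a peptide and histidine carrier of the endolysosome, took 91.4% of the peptide class's reads on Day 8 (84.9% to 94.6%). SLC15A2 (PEPT2), the high-affinity peptide carrier of the plasma membrane, took 92.8% on Day 10 (89.9% to 95.9%) and 95.5% on Day 12 (82.3% to 96.7%). Each was ahead of the next peptide carrier in 10 of 10 embryos of its days. The ratio of SLC15A2 to SLC15A4 reads within an embryo had medians of 0.0775, 13.5 and 24.6 on Days 8, 10 and 12, and the highest Day 8 embryo (0.167) lay far below the lowest Day 10 embryo (8.96).

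SLC15A2 (gene 100048951, Sscrofa11.1 chr13:138595942-138634473) had 4.03 CPM on Day 8 (2.13 to 9.06), 472 CPM on Day 10 (348 to 787) and 555 CPM on Day 12 (142 to 758). Every Day 10 embryo was above every Day 8 embryo, while Days 10 and 12 overlapped. The log2 fold change was 6.76 ± 0.30 (SE; adjusted p = 3.08e-17) on Day 10 against Day 8, the 46th largest rise among the 13103 genes, and 0.12 ± 0.23 (adjusted p = 0.675) on Day 12 against Day 10. The lowest Day 12 value came from d12_f_245, the smallest library, and the other 9 embryos had at least 439.7 CPM. SLC15A2 overlaps EAF2 by 1933 bp, and EAF2 rose as well, from a median of 2.47 to 19.5 CPM, far below the SLC15A2 level on Day 10.

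SLC15A4 fell in small, even steps, from 55.7 CPM (46.9 to 61.6) to 35.6 CPM (30.01 to 40.02) and 24.3 CPM (17.0 to 29.3). The 3 days did not overlap. Its log2 fold change was -0.65 ± 0.08 and -0.54 ± 0.08 in the first and second step, both under the fold limit, and -1.19 ± 0.08 on Day 12 against Day 8 (adjusted p = 4.60e-14), which was called. SLC15A1 (PEPT1), the low-affinity peptide carrier of the gut, had 0.678 CPM (0.156 to 1.23) on Day 8 and 0.450 CPM (0.273 to 0.869) on Day 10, and rose to 2.54 CPM (1.24 to 5.99) on Day 12, a log2 fold change of 2.75 ± 0.31 (adjusted p = 5.46e-09). No Day 12 embryo was as low as any Day 10 embryo, yet SLC15A1 held a median of only 0.443% of the class's reads on Day 12.

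**Figure D2:**
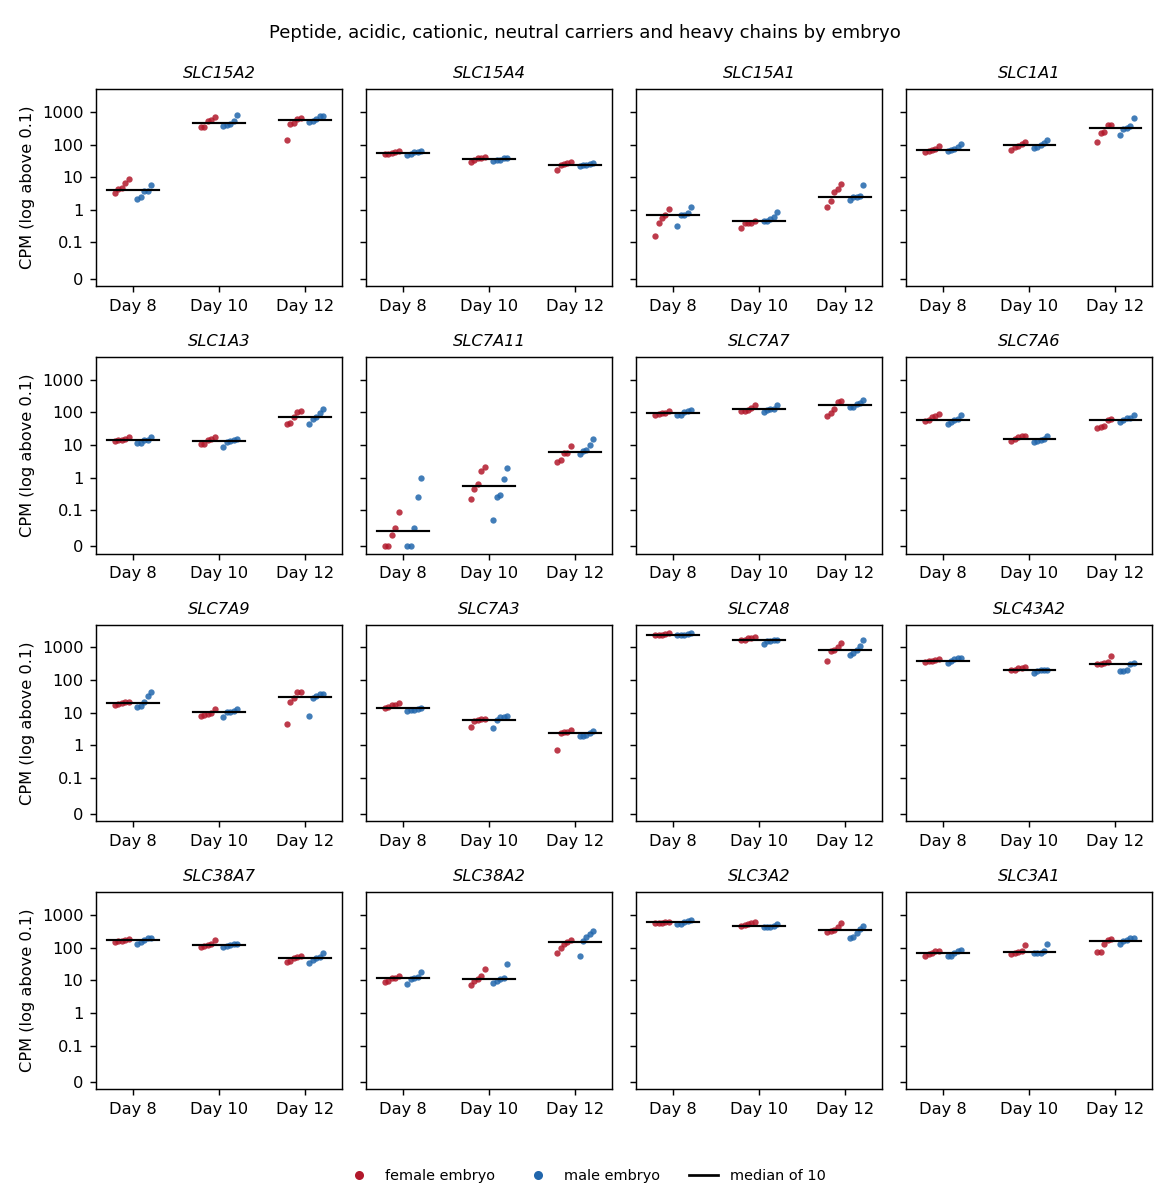
CPM of 16 carrier genes in each embryo (red, female; blue, male) on Days 8, 10 and 12, with the median of 10 embryos as a line; the axis is logarithmic above 0.1 CPM and linear below. SLC15A2 is below 10 CPM on Day 8 and above 100 CPM on Days 10 and 12, SLC7A6 dips on Day 10, and SLC38A2, SLC1A1 and SLC1A3 rise on Day 12.

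SLC1A1 (EAAC1), a glutamate, aspartate and cysteine carrier of epithelia, was the main acidic carrier on each day. Its share of the class's reads was 84.3% on Day 8 (77.7% to 86.0%), 87.8% on Day 10 (78.1% to 91.7%) and 78.4% on Day 12 (71.3% to 83.4%), ahead of SLC1A3 in 10 of 10 embryos on every day. All 3 acidic members were called as higher on Day 12 against Day 10, beside 14.9% of all genes. None was called in the first step, beside 14.1% of all genes called either way. The median log2 fold change of the 3 was 2.58 in the second step, beside 0.04 over all genes.

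SLC1A1 (gene 397003, chr1:217366493-217441643) had 69.6 CPM (60.6 to 107) on Day 8, 95.8 CPM (69.0 to 134) on Day 10 and 314.97 CPM (122 to 630.4) on Day 12. The Day 12 range began below the highest Day 10 embryo because of d12_f_271, the lowest of its day. The log2 fold change was 1.73 ± 0.19 (adjusted p = 3.95e-09) on Day 12 against Day 10. The gene overlaps a long noncoding RNA, LOC110256886, over 4876 bp, which was at most a median of 4.59 CPM on any day.

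SLC1A3 (GLAST), a glutamate and aspartate carrier known mainly from glia, had 14.2 CPM (11.13 to 18.1) on Day 8, 13.6 CPM (8.71 to 17.3) on Day 10 and 73.5 CPM (43.4 to 128.5) on Day 12. Days 8 and 10 overlapped nearly in full, and every Day 12 embryo was above both. The rise on Day 12 against Day 10 was 2.58 ± 0.18 on the log2 scale (adjusted p = 1.18e-13). SLC7A11 (xCT), which exchanges cystine for glutamate and feeds glutathione synthesis, had 0.0412 CPM (0 to 0.960) on Day 8, with at most 3 counts in 8 of 10 embryos, 0.533 CPM (0.0740 to 2.04) on Day 10 and 6.17 CPM (3.04 to 15.7) on Day 12. No Day 12 embryo overlapped an earlier day, and the log2 fold change was 3.08 ± 0.57 (adjusted p = 2.82e-05) on Day 12 against Day 10. In the first step it was 2.32 ± 0.65 (adjusted p = 0.00303) and was not called in the quasi-likelihood test with all embryos. The edgeR robust GLM and DESeq2 did call that step with all embryos. Without d08_m_103, the Day 8 embryo with 0.960 CPM, that step was 3.995 on the log2 scale (adjusted p = 8.79e-06) and was called in the quasi-likelihood test too.

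SLC7A7 (y+LAT1), the basolateral exchanger of cationic for neutral amino acids, was the main cationic carrier by reads on each day. Its share was 47.8% on Day 8 (42.1% to 56.7%), 77.8% on Day 10 (74.7% to 84.1%) and 62.9% on Day 12 (56.8% to 70.8%). On Day 8 it had more reads than SLC7A6 in 9 of 10 embryos, with a ratio of 0.999 to 2.43, so the order of those genes on Day 8 could turn with a modest difference in transcript length. On Day 10 the median ratio was 7.69 and on Day 12 3.01, both with SLC7A7 ahead in 10 of 10 embryos. In the first step 4 of the 6 cationic carriers were called as lower, beside 4.20% of all genes, and none as higher, beside 9.88%; SLC7A7 and SLC7A1 had higher medians on Day 10 but were not called. In the second step 3 were called as higher and 1 as lower, beside 14.9% and 8.39% of all genes.

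SLC7A7 itself had 95.3 CPM (81.2 to 114) on Day 8, 122 CPM (105.1 to 170.1) on Day 10 and 165 CPM (78.2 to 236) on Day 12. Its days overlapped, and its log2 fold change was 0.42 ± 0.15 in the first step (adjusted p = 0.0143) and 0.34 ± 0.15 in the second (adjusted p = 0.0473). Neither step met the limit on the adjusted p or the fold limit. SLC7A6 (y+LAT2), the more widely expressed exchanger of the same type, had 59.9 CPM (44.0 to 85.4) on Day 8, 15.1 CPM (12.3 to 19.3) on Day 10 and 57.5 CPM (33.9 to 84.4) on Day 12. All 10 Day 10 embryos lay below all embryos of the other days, and Days 8 and 12 overlapped. SLC7A6 fell by 2.03 on the log2 scale (SE 0.15; adjusted p = 3.04e-12) and then rose by 1.82 ± 0.15 (adjusted p = 8.54e-12). It overlaps SLC7A6OS by 1935 bp, and SLC7A6OS went from 57.2 to 31.2 and 24.7 CPM with no rise on Day 12. Whether reads were counted by strand is not given in the sources used here, so reads in such overlaps cannot be assigned with certainty.

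The CAT carriers moved in different directions. SLC7A3 (CAT3), X-linked in the pig, had 14.2 CPM (11.3 to 19.4), 6.13 CPM (3.47 to 7.85) and 2.34 CPM (0.723 to 2.85) on Days 8, 10 and 12, with no overlap between neighbouring days. It fell by 1.29 ± 0.16 (adjusted p = 8.60e-08) and by 1.42 ± 0.17 on the log2 scale (adjusted p = 1.22e-08). The epiblast markers POU5F1, NANOG and SOX2 fell over the same days, with a summed level of 35.8 CPM (27.1 to 46.7), 16.6 CPM (12.6 to 23.0) and 1.56 CPM (0.640 to 4.05), 1 of 3 called in the first step and 3 of 3 in the second, SOX2 being at 0 in 8 of 10 Day 12 embryos. Their part in the fall of SLC7A3 was not tested.

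SLC7A2 (CAT2), known as an inducible arginine carrier, had 2.58 CPM (2.11 to 6.21) on Day 8, 0.854 CPM (0.392 to 2.68) on Day 10 and 0.787 CPM (0.323 to 1.98) on Day 12. The fall on Day 10 was 1.70 ± 0.34 on the log2 scale (adjusted p = 0.000117), with only d10_f_454 reaching into the Day 8 range. SLC7A1 (CAT1), the general arginine and lysine carrier, went the other way, from 0.910 CPM (0.258 to 2.02) and 1.45 CPM (0.444 to 4.77) to 7.45 CPM (1.88 to 13.2). Its rise on Day 12 against Day 10 was 2.11 ± 0.37 (adjusted p = 1.13e-05), with overlap at the low end of Day 12, where d12_f_245 was lowest. SLC7A9, the light chain of rBAT, had 20.1 CPM (15.3 to 42.0), 10.1 CPM (7.43 to 13.04) and 30.3 CPM (4.38 to 43.01), a log2 fold change of -1.16 ± 0.27 (adjusted p = 0.000536) and then 1.49 ± 0.27 (adjusted p = 1.98e-05). Its first step lay close to the limit and was no longer called when any of 7 single embryos was left out (d08_m_121, d08_m_133, d10_f_315, d10_f_317, d10_f_336, d10_f_433 or d10_m_321), where the adjusted p was between 0.00102 and 0.00175 and the log2 fold change between -1.01 and -1.15.

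**Figure D3:**
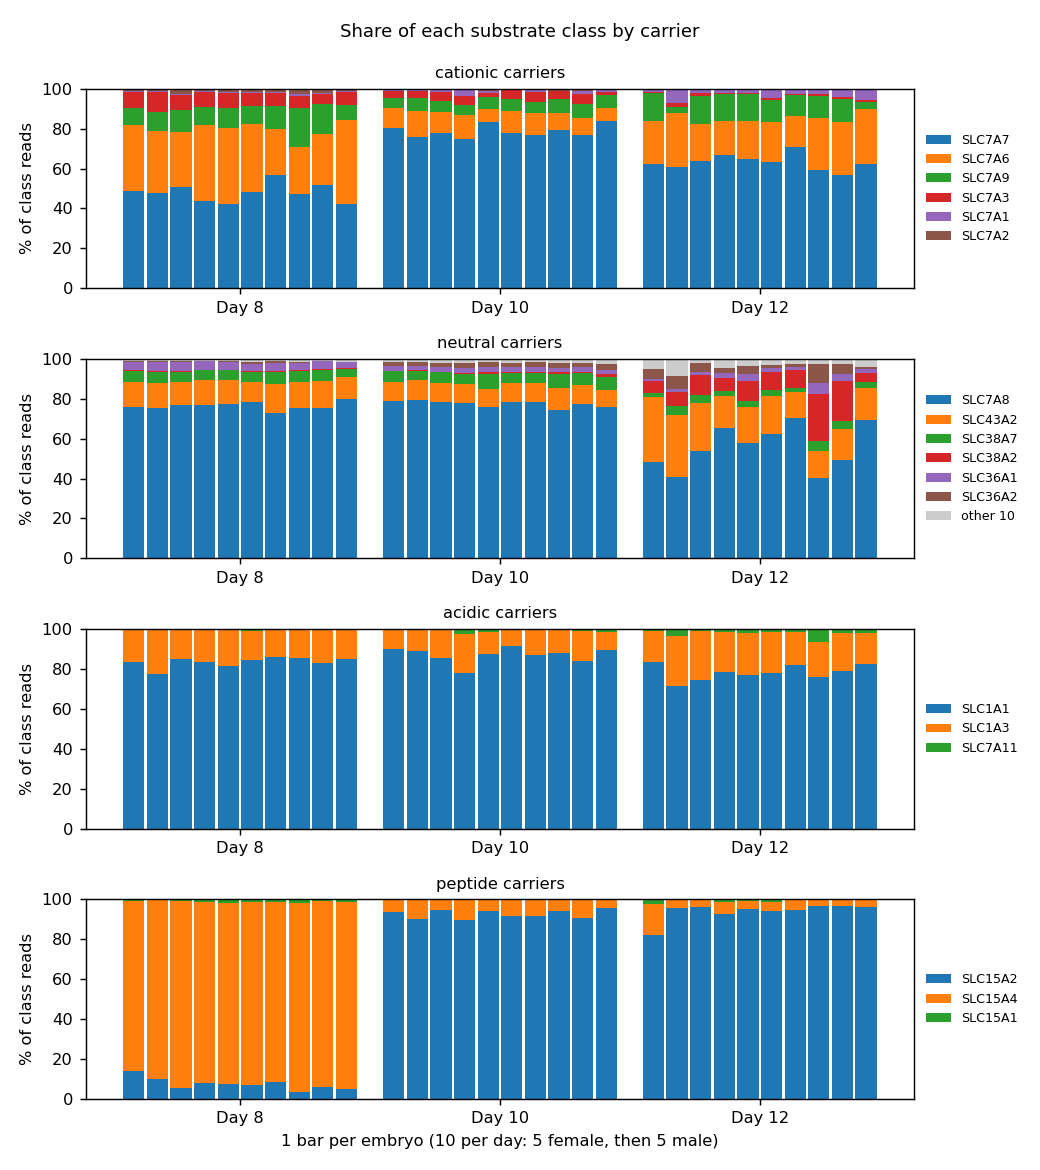
Share of the summed CPM of each substrate class taken by each carrier (percent, stacked) in each embryo, 10 bars per day. SLC7A8 and SLC1A1 lead their classes in every embryo, SLC7A7 takes more of the cationic class on Day 10 than on the other days, and the peptide class passes from SLC15A4 on Day 8 to SLC15A2 on Days 10 and 12.

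SLC7A8 (LAT2), an exchanger of small and large neutral amino acids, was the main neutral carrier by reads in 10 of 10 embryos on each day. It took 76.5% of the class's reads on Day 8 (73.1% to 80.2%), 78.1% on Day 10 (74.4% to 79.6%) and 55.9% on Day 12 (40.2% to 70.5%). SLC43A2 (LAT4), a facilitated carrier of branched-chain amino acids and phenylalanine, was next on each day, with 12.5%, 9.45% and 17.1%. Within an embryo, SLC7A8 had at least 5.18 times the reads of SLC43A2 on Day 8 and 6.55 times on Day 10, but only 1.30 times in the lowest embryo of Day 12, where the median was 3.18.

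SLC7A8 (gene 100522330, chr7:75854700-75921931) had 2470.1 CPM (2311 to 2687) on Day 8, 1684 CPM (1286 to 2051) on Day 10 and 834 CPM (388 to 1679) on Day 12. Day 8 stood clear of Day 10, and on Day 12 d12_f_297 and d12_m_275 reached into the Day 10 range. The log2 fold change was -0.55 ± 0.16 in the first step (adjusted p = 0.00374), -0.90 ± 0.16 in the second (adjusted p = 1.26e-05) and -1.45 ± 0.16 over both (adjusted p = 2.05e-09). The fold limit was passed over both steps together, and in the second step only without d12_m_275 (-1.04, adjusted p = 1.83e-07). On Day 8 SLC7A8 alone made up 54.6% of the reads of all 39 genes, and on Day 12 23.7%.

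SLC43A2 had 393 CPM (320.7 to 478), 201 CPM (169.6 to 244.7) and 311 CPM (193 to 555) on the 3 days. All Day 10 embryos were below all Day 8 embryos, with a log2 fold change of -0.96 ± 0.13 (adjusted p = 5.88e-07) just under the fold limit, and the step to Day 12 was 0.57 ± 0.13 (adjusted p = 0.000543). Of the 16 neutral carriers, 2 rose (12.5%) and 1 fell (6.25%) in the first step, near the 9.88% and 4.20% of all genes. In the second step 5 rose (31.2%) and 1 fell, beside 14.9% and 8.39% of all genes, and over both steps 7 rose and 3 fell, beside 22.0% and 10.4%.

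In the first step the neutral carriers that rose were SLC1A4 and SLC36A2. SLC1A4 (ASCT1), a carrier of serine, alanine and threonine, had 0.560 CPM (0.149 to 0.713), 1.47 CPM (0.481 to 5.09) and 2.92 CPM (1.01 to 6.18), and its rise on Day 10 was 1.96 ± 0.40 on the log2 scale (adjusted p = 0.000129). The highest Day 10 values came from d10_f_454 and d10_m_453, and the lowest, d10_m_333, lay inside the Day 8 range. SLC36A2 (PAT2), a proton-coupled carrier of glycine, alanine and proline, had 19.3 CPM (8.72 to 28.3), 47.9 CPM (38.2 to 63.6) and 61.9 CPM (12.0 to 136.5). Days 8 and 10 did not overlap (1.48 ± 0.27, adjusted p = 3.73e-05), and Day 12 spread over both.

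SLC36A1 (PAT1), the related carrier of the lysosome and gut brush border, fell from 134 CPM (104 to 143) to 49.3 CPM (37.2 to 65.2), with 35.6 CPM (13.6 to 77.9) on Day 12. Every Day 10 and Day 12 embryo was below every Day 8 embryo, and the fall in the first step was 1.33 ± 0.22 on the log2 scale (adjusted p = 7.13e-06). SLC38A7 (SNAT7), a lysosomal glutamine and asparagine carrier, had 168 CPM (132 to 201), 120.7 CPM (107 to 176) and 49.3 CPM (34.8 to 70.0). Days 8 and 10 overlapped, Day 12 lay below both, and the second step fell by 1.38 ± 0.11 (adjusted p = 3.70e-12). SLC38A9, the lysosomal arginine sensor, had 26.1, 33.7 and 30.3 CPM and was not called. SLC38A9 overlaps PLPP1 over 101950 bp, and PLPP1 rose from 1.13 to 244 CPM.

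SLC38A2 (SNAT2), the sodium-coupled carrier of small neutral amino acids known to be induced by amino acid shortage, had the largest rise of the neutral class. It had 11.6 CPM (7.76 to 18.2) on Day 8, 11.3 CPM (7.35 to 32.7) on Day 10 and 153 CPM (55.2 to 328) on Day 12. Days 8 and 10 were alike in range apart from d10_f_454 and d10_m_453, and every Day 12 embryo was above every earlier one. The rise on Day 12 against Day 10 was 3.56 ± 0.30 on the log2 scale (adjusted p = 8.82e-12), and with it SLC38A2 became the third neutral carrier by reads, with a median of 9.05% of the class. In 2 of 10 Day 12 embryos, d12_m_276 and d12_m_286, it had more reads than SLC43A2.

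The other neutral carriers called as higher on Day 12 against Day 10 were SLC38A3 and SLC38A5, glutamine and histidine carriers of the SNAT group, SLC6A19 (B0AT1), the apical carrier of epithelia, and SLC1A5 (ASCT2), the glutamine exchanger. Their log2 fold changes ran from 1.30 ± 0.25 for SLC1A5 to 2.56 ± 0.43 for SLC38A3, at median levels on Day 12 of 13.4 CPM for SLC1A5, 3.998 CPM for SLC38A5, 2.71 CPM for SLC38A3 and 2.28 CPM for SLC6A19. SLC6A19 had 0.180 to 11.9 CPM among the Day 12 embryos and overlapped Day 10 in full (2.18 ± 0.51, adjusted p = 0.000454). Its call was lost when any of 6 single embryos was left out (d10_f_315, d10_f_433, d10_f_454, d12_f_245, d12_f_297 or d12_f_299), where the adjusted p was between 0.00104 and 0.00210 and the log2 fold change between 1.82 and 2.13. SLC7A5 had 10.5, 14.3 and 13.5 CPM and was not called in any comparison.

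Neither heavy chain was called between neighbouring days in the quasi-likelihood test. SLC3A2, which carries LAT1, LAT2, both y+L exchangers and xCT to the membrane, had 598 CPM (518 to 721) on Day 8, 478 CPM (437 to 604) on Day 10 and 339 CPM (206 to 582) on Day 12. Neighbouring days overlapped, and its log2 fold change was -0.27 ± 0.13 (adjusted p = 0.0802), -0.51 ± 0.13 (adjusted p = 0.00144) and, over both steps, -0.78 ± 0.13 (adjusted p = 4.96e-06), always under the fold limit. The ratio of SLC7A8 to SLC3A2 reads within an embryo had a median of 4.03 on Day 8 (3.65 to 4.96), 3.42 on Day 10 (2.93 to 3.98) and 2.98 on Day 12 (1.26 to 3.61). SLC3A1, the partner of SLC7A9, had 68.7 CPM (54.0 to 87.1), 72.6 CPM (65.8 to 126) and 163 CPM (72.5 to 203). It rose by 1.11 ± 0.16 on the log2 scale on Day 12 against Day 8 (adjusted p = 5.24e-07), with d12_f_245 and d12_f_271 inside the Day 8 range. The second step was 0.85 ± 0.16 (adjusted p = 4.14e-05), under the fold limit, but the edgeR robust GLM and scaling by library size alone did call it. The ratio of SLC7A9 to SLC3A1 reads was 0.299, 0.120 and 0.205 on Days 8, 10 and 12, and the Day 8 and Day 10 embryos did not overlap in it (0.203 to 0.482 against 0.103 to 0.159).

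Among the carriers of amines, osmolytes and creatine, SLC6A12 (BGT1), the betaine and GABA carrier, was detected above the floor on Day 10 alone. It had no read in any Day 8 embryo and at most 2 counts in any Day 12 embryo, against 4.09 CPM on Day 10 (0.273 to 12.0). Each of the 10 Day 10 embryos was above every embryo of the other days. Set against a floor of 3 counts per library, the mean of Day 10 was at least 35.2-fold higher than Day 8 and at least 30.1-fold higher than Day 12. Both steps were called (adjusted p = 7.97e-09 and 1.10e-08). On Day 10 the highest values were in d10_m_453 (12.0 CPM) and d10_f_454 (11.7 CPM) and the lowest in d10_f_433 (0.273 CPM) and d10_m_435 (0.550 CPM).

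SLC6A6 (TauT), the taurine carrier, had the largest rise on Day 12 against Day 10 among the 39 genes. It had 0.444 CPM (0.154 to 0.774), 0.214 CPM (0.0454 to 0.939) and 3.57 CPM (0.116 to 13.3), a log2 fold change of 4.28 ± 0.59 (adjusted p = 2.44e-07) in the second step. The Day 10 embryos held 1 to 26 counts, with 2 of them at the floor, so the size of this rise rests on few reads. Day 12 embryos differed widely, with 11.7 to 13.3 CPM in d12_f_289, d12_m_276 and d12_m_286 and 0.240 and 0.116 CPM in d12_f_271 and d12_m_307, which lay within the Day 10 range. SLC6A8, the creatine carrier, had 98.6 CPM (77.3 to 142), 71.5 CPM (53.0 to 93.6) and 206 CPM (66.1 to 268) and rose by 1.29 ± 0.21 in the second step (adjusted p = 4.72e-06). Of its Day 12 embryos 6 lay above the Day 8 range, 3 inside it and 1 (d12_f_271) below it.

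**Figure D4:**
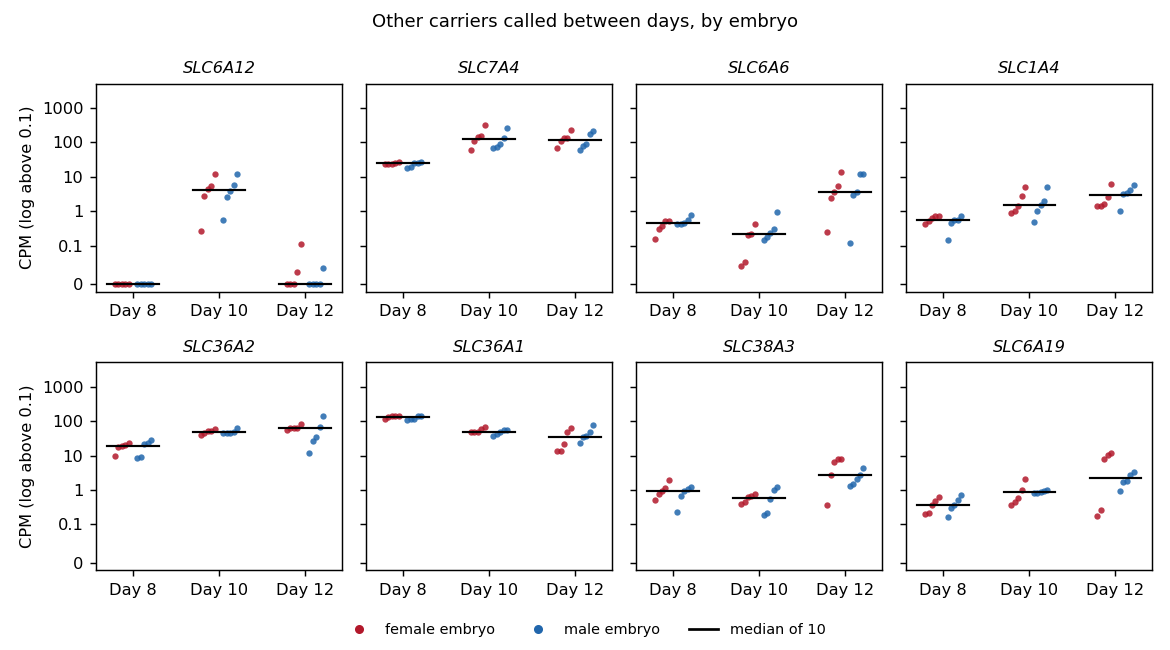
CPM of 8 further carrier genes called between days, in each embryo (red, female; blue, male) with the median of 10 embryos as a line; the axis is logarithmic above 0.1 CPM and linear below. SLC6A12 is above the floor on Day 10 alone, SLC7A4 steps up on Day 10, and SLC6A6 and SLC6A19 are spread widely among Day 12 embryos.

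Of the 6 genes of other or uncertain substrate, SLC7A4, an SLC7 member with no settled substrate, rose on Day 10 and stayed at that level. It had 24.3 CPM (17.5 to 26.7) on Day 8, 120.65 CPM (60.03 to 316.8) on Day 10 and 118 CPM (60.01 to 224) on Day 12. No Day 8 embryo overlapped the later days, and the log2 fold change was 2.57 ± 0.28 (adjusted p = 5.39e-09) in the first step and -0.13 ± 0.26 (adjusted p = 0.677) in the second. SLC43A3, a purine nucleobase carrier despite its family, fell from 13.5 CPM (10.1 to 21.3) to 4.78 CPM (2.57 to 6.50), with 7.01 CPM (2.37 to 9.21) on Day 12. The first step fell by 1.55 ± 0.23 on the log2 scale (adjusted p = 1.34e-06), and Day 8 stood clear of both later days. SLC38A6 and SLC38A10, SLC38 members of little known function, were not called in any comparison between days.

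The embryos of a day differed more on Day 12 than before. Among members with a mean of at least 1 CPM, the median coefficient of variation between the 10 embryos was 17.6% on Day 8 (28 members), 20.9% on Day 10 (33 members) and 47.0% on Day 12 (37 members), beside 13.8%, 17.9% and 28.9% over all genes at that level. On Day 10, d10_m_453 was the highest embryo for 10 of 39 members, beside 14.1% of all genes, with SLC15A2, SLC6A12, SLC1A1, SLC3A1 and SLC38A2 among them. The embryo d10_f_454 was the highest for 6 of 39, with SLC7A4, SLC1A4 and SLC7A7 among them, which is no more than its 17.8% of all genes. On Day 12, d12_f_271 and d12_f_245 were each the lowest for 10 of 39 members, beside 15.3% and 29.25% of all genes. In the same group d12_m_276 was the highest for 10 and d12_f_297 for 8, beside 14.3% and 2.925% of all genes. On Day 8, d08_m_121 was the highest for 12 of 38 members, beside 12.3% of all genes.

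Cell type markers moved over the same days. The 6 trophectoderm markers were all in the table, with a summed level of 23664 CPM on Day 8 (20567 to 25209), 42265 CPM on Day 10 (32648 to 50036) and 13108 CPM on Day 12 (8556 to 26482), mostly KRT8 and KRT18. On Day 12 against Day 10, CDX2, KRT8 and KRT18 fell and GATA3 rose. The 5 hypoblast markers summed to 285.8 CPM (269 to 392), 165 CPM (138 to 182) and 401 CPM (141 to 1182). GATA6 alone of them was called in the first step, as lower, and it did not rise in the second (57.1 to 43.9 CPM, a log2 fold change of -0.32, not called). PDGFRA, GATA4 and FOXA2 rose in the second step, and SOX17 was not called in either. Of 5 markers of uterine epithelium only ESR1 was in the table, at 0 to 4.92 CPM, and of 4 markers of maternal blood only HBB, at 0 to 8.36 CPM with medians of 0, 0 and 0.945 CPM. The part of cell composition in the changes of the carriers was not tested.

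In the edgeR test on the table of each day, no member was called between female and male embryos at an adjusted p under 0.05, with 31, 35 and 37 members in the tables of Days 8, 10 and 12, beside 0.658%, 0.223% and 0.123% of all genes called. At an unadjusted p under 0.05 that test gave 1, 3 and 5 members. How many of all genes reached that p is not given here, so these counts cannot be set against a share. DESeq2 called SLC6A8 on Day 10 and SLC38A5 on Day 12, and an edgeR fit of all 30 embryos called SLC38A5, SLC38A6, SLC43A2 and SLC7A6 on Day 12. The shares of all genes above belong to the edgeR test of each day, and those of DESeq2 and the larger fit are not given here. Of the X-linked members, SLC6A8 (chrX:124435282-124452182) had 73.6, 88.6 and 93.6 CPM as the lowest, median and highest of 5 females on Day 10, against 53.0, 62.4 and 69.4 CPM in 5 males. The sexes did not overlap, and the log2 fold change of female against male was 0.46 ± 0.09 (adjusted p = 0.173 in the edgeR test). On Day 8 the difference was 0.08 ± 0.15 and on Day 12 0.40 ± 0.43, with overlapping sexes on both days. BCAP31 starts 4817 bp after the end of SLC6A8.

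SLC7A3 (chrX:56937081-56942331) had 14.2 to 19.4 CPM in females and 11.3 to 14.2 CPM in males on Day 8, with medians of 17.2 and 12.0 CPM and no overlap (0.41 ± 0.12, adjusted p = 0.311 in the edgeR test). On Day 10 it was -0.22 ± 0.23 and on Day 12 0.06 ± 0.33 on the same log2 scale. SLC38A5 (chrX:42590608-42601537) had a median of 8.44 CPM in females (3.34 to 23.5) and 3.23 CPM in males (0.930 to 4.13) on Day 12, a difference of 1.87 ± 0.58 (adjusted p = 0.198 in the edgeR test) with overlapping sexes. The highest value was that of d12_f_271. The sex difference itself was compared between days in a fit of 6 groups, in which no member and no gene was called (0% of 13103 genes for each pair of days). At an unadjusted p under 0.05 the members numbered 1 for Day 10 minus Day 8, 4 for Day 12 minus Day 10 and 7 for Day 12 minus Day 8. The share of all genes under that p is not given here, so these counts show no trait of the members.

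**Figure D5:**
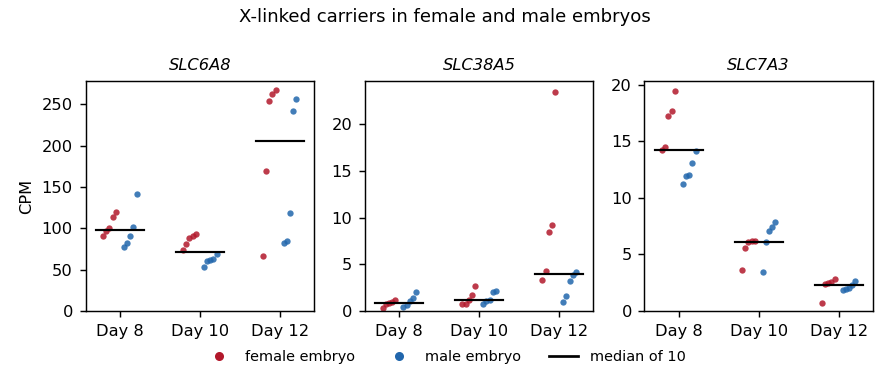
CPM of the 3 X-linked members in each female (red) and male (blue) embryo by day, with the median of 10 embryos as a line; each panel has its own linear axis from 0. Females are above males without overlap for SLC6A8 on Day 10 and for SLC7A3 on Day 8.

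Other genes of amino acid transport and sensing were counted in the same way. Of 18 further genes listed as amino acid carriers, 13 were in the table. On Day 10 against Day 8, 1 was higher and 2 were lower, where 14.1% of all genes were called. On Day 12 against Day 10, 2 were higher and none lower, where 23.3% of all genes were called. The 2 were SLC25A12 and SLC17A9 (1.72, adjusted p = 1.07e-08), and SLC17A9 is known as a vesicular nucleotide carrier and not as an amino acid carrier. SLC16A10 (TAT1), the carrier of aromatic amino acids, rose from 24.8 CPM (21.3 to 33.9) to 108.7 CPM (60.4 to 223), a log2 fold change of 2.25 (adjusted p = 8.39e-11), and had 120.1 CPM (50.1 to 141) on Day 12. SLC25A22, a mitochondrial glutamate carrier, fell from 179 CPM (151 to 210.0) to 67.5 CPM (37.5 to 83.0), a log2 fold change of -1.497 (adjusted p = 1.87e-09). SLC25A12, a mitochondrial aspartate-glutamate carrier, rose from 11.9 to 27.9 CPM on Day 12 (1.24, adjusted p = 1.46e-07). SLC25A13, the other carrier of that type, had more reads, with medians of 134, 140 and 151 CPM on Days 8, 10 and 12. It was not called, with a log2 fold change of -0.05 on Day 12 against Day 10 (adjusted p = 0.681).

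Of 31 genes of amino acid sensing by mTORC1, 29 were in the table, with 1 higher in the first step, and 1 higher and 3 lower in the second, beside 14.1% and 23.3% of all genes called. Their median log2 fold change was 0.26 and -0.12, beside 0.03 and 0.04 over all genes. FLCN, which with FNIP proteins acts on RagC and RagD, rose on Day 10 from 4.53 to 12.96 CPM (1.27, adjusted p = 3.68e-07). On Day 12 the arginine sensor CASTOR1 rose from 14.9 to 44.7 CPM (1.74, adjusted p = 2.71e-08), while RRAGC fell from 151 to 65.6 CPM, RRAGD from 2.02 to 0.797 CPM and FNIP2 from 12.7 to 2.95 CPM. MTOR itself had 97.7, 83.0 and 94.3 CPM and was not called.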

How the data were processed

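Raw read counts per NCBI gene identifier were deposited by the authors in 4 tables (all embryos and each day), with no normalization. Trim Galore trimming of single-end reads, mapping to Sscrofa11.1 in Galaxy and a CPM cutoff on genes were applied by the authors; the aligner, counting tool, strand setting and cutoff are not given in the sources used here. Groups came from the sample titles, and 0 columns were left unmapped. Gene symbols, chromosomes and coordinates are those of RefSeq for this assembly.

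Comparisons between days used 1 edgeR quasi-likelihood fit with 3 day groups (TMM, robust dispersion, Benjamini-Hochberg over 13103 genes), called at an adjusted p under 0.001 and a log2 fold change beyond 1. Comparisons between sexes used the day's own table (11405, 11675 and 12220 genes) at an adjusted p under 0.05, and their differences between days a fit of 6 groups. Standard errors are the log2 fold change over the root of its F value. A gene was at the floor with 3 counts or fewer, 0.0823 to 0.434 CPM by library; floors cover counting error only, while standard errors include the spread between embryos. edgeR 4.0.16 and DESeq2 1.42.0 ran in R 4.3.3, and tables and plots were made in Python 3.11.15 (pandas 2.3.3, matplotlib 3.10.9); the tests were tried on simulated data.

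The genes named with full values were the 2 leading members of the cationic, neutral, acidic and peptide classes on each day, the heavy chains, the 5 largest called rises and falls of each step and the X-linked members; others were added where a sentence turned on them. Leading members were to be ranked per kilobase, but no transcript or coding lengths were at hand, so reads were ranked instead. The members and lists were chosen with earlier results of these data known. Alternatives were the robust GLM, DESeq2, other scaling, filters on low counts, sex as a term, fewer or more embryos in the fit, a test against the fold limit and leaving out each embryo.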

Additional observations from a re-analysis of the deposited data

Results flagged for a closer look

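In 24 of 135 groups of 10 embryos of a day, or of 5 embryos of 1 sex for the X-linked members, the highest or lowest embryo of a member stood apart from the others, the gap to the nearest embryo being large against the whole range of the group (Dixon's limit). Chance sets an embryo apart in about 1 in 20 groups when values are normally distributed. The groups here share embryos, and some hold few reads, so their number is not a test against chance.

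Several of these values came from the Day 12 female embryo d12_f_245, the smallest library. It was lowest for SLC15A2 at 142 CPM (others 439.7 to 758), for SLC7A3 at 0.723 CPM both among all embryos of Day 12 (others 1.90 to 2.85) and among the females (others 2.35 to 2.85), and for SLC7A6OS at 20.4 CPM (others 24.2 to 26.7). It was highest for SLC43A2 at 555 CPM (others 193 to 355) and for SLC38A10 at 78.9 CPM (others 36.9 to 49.7). The Day 12 female d12_f_271 was highest for SLC38A5 at 23.5 CPM (others 0.930 to 9.26) and for SLC6A9, a glycine carrier, at 4.62 CPM (others 0.235 to 1.59). SLC6A12 was highest at 0.108 CPM in d12_f_289, within the floor.

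On Day 10, d10_m_453 was highest for SLC38A1 at 4.99 CPM (others 0.283 to 2.28) and for SLC6A6 at 0.939 CPM (others up to 0.437). The female d10_f_454 was highest for SLC38A7 at 176 CPM (others 107 to 134) and for SLC7A2 at 2.68 CPM (others up to 1.48), and lowest among the females for SLC7A3 at 3.60 CPM (others 5.57 to 6.18). The other Day 10 values were SLC15A1 at 0.869 CPM in d10_m_321, SLC6A19 at 2.07 CPM in d10_f_317 and SLC7A1 at 4.77 CPM in d10_f_433, each the highest of its day.

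On Day 8, d08_m_103 was highest for SLC38A1 at 2.19 CPM (others up to 0.334), for SLC6A9 at 0.850 CPM (others up to 0.237) and for SLC7A11 at 0.960 CPM (others up to 0.259). Without it, SLC38A1 was called on Day 10 against Day 8 (2.78 on the log2 scale) and on Day 12 against Day 8 (2.55), and SLC6A9 on Day 12 against Day 8 (3.12). With all embryos the robust GLM also called these comparisons, and DESeq2 that of SLC6A9. The other Day 8 values were SLC1A4, lowest at 0.149 CPM in d08_m_136, SLC7A5, highest at 24.4 CPM in the same embryo, SLC43A3, highest at 21.3 CPM in d08_m_121, and SLC7A1, highest at 2.02 CPM in d08_f_105.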

How the results depend on the processing

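Under the robust GLM, DESeq2, RLE scaling, library size alone, filters on low counts, sex as a term and only the compared days in the fit, the counts of members called between days stayed within 1.5 times their values, and no called member changed direction under any alternative. The stricter glmTreat test, whose null is a 2-fold change and not no change, called 4 members on Day 10 against Day 8, 9 on Day 12 against Day 10 and 15 on Day 12 against Day 8. Leaving out each embryo gave 10 to 13, 16 to 18 and 24 to 26 members. The share of all genes called under these alternatives is not given here, so their counts do not show whether members exceed it. Between sexes, DESeq2 called 1 member on Day 10 (SLC6A8) and 1 on Day 12 (SLC38A5), and a fit of all 30 embryos called 4 on Day 12 (SLC38A5, SLC38A6, SLC43A2, SLC7A6). The cause was not tested, and the share of all genes called in those fits is not given here. Leaving out each embryo called 0 between sexes on each day. Shares of class reads are the same under any scaling by construction, and a ranking by coding length was not run, since no lengths were at hand. No paired analysis was possible because the replicate labels are embryo numbers that no 2 groups share.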
